A study of Mus musculus with 14 samples.

Results

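The 7 genes described here serve antigen presentation by MHC class II: the regulator Ciita, the invariant chain gene Cd74, the chain genes H2-Aa, H2-Ab1 and H2-Eb1, and the peptide-exchange genes H2-DMa and H2-DMb1. They were matched by symbol in a mouse count table of 55291 symbols, and all 7 were found. The set was selected on these same values, chosen by the rise of the genes at day 32 and their high levels in primary tissue. Their levels and changes are therefore a description, with no p of their own, and counts of how many passed the threshold over all genes are given only beside the same share of all genes. All 7 also passed the filter on low counts that left 20562 genes for testing.

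Class II molecules are pairs of an alpha and a beta chain that show peptides from the endosome to CD4 T cells. The invariant chain, the product of Cd74, holds a new pair and guides it to the endosome, where proteases cut it down and the DM heterodimer exchanges the last fragment for a peptide. CIITA does not bind DNA itself. It docks on RFX, CREB and NF-Y proteins that sit on paired short sequences, the X and Y boxes, before the start of each class II gene. Macrophages, dendritic cells and B cells make class II in the resting state, and many other cells, retinal pigment epithelium among them, can make it after interferon-gamma. C57BL/6J mice carry a defective H2-Ea gene and make no I-E molecule, although H2-Eb1, its beta chain gene, is transcribed.

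The data are 14 mouse RNA libraries of 5 groups, all labelled C57BL/6J, in a study of the chemical conversion of fibroblasts into retinal pigment epithelium (RPE), the pigmented layer behind the photoreceptors. Mouse embryonic fibroblasts (MEF, n = 3) from E13.5 embryos were the starting cells, and no transgene is labelled. D7 and D18 (n = 3 each) were collected after 7 and 18 days in a reprogramming medium with basic FGF, CHIR-99021, LDN193189, A 83-01, Hh-Ag1.5, RG108, BMS-345541 and CKI-7. D32 (n = 3) was collected on day 32, after a change to a medium with serum replacement, Y27632, nicotinamide, retinoic acid and activin A. P-RPE (n = 2) is primary RPE without treatment. The labels give the MEF libraries the reprogramming medium and give P-RPE the same embryonic source as MEF, and these entries were not used for grouping. RNA came from cells scraped for their well-induced look, which makes the treated groups selected cells. Separate cultures or animals are not named, so a p measures the spread between these samples, which may be technical. The labelled source, E13.5 embryos, is the only age given.

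Total counts ran from 32352405 to 41390196 per library, and 1 count equalled 0.0227 to 0.0305 CPM (CPM, the count over a scaled library size). Of nonzero counts up to 50, between 66.6% and 73.8% per library were even, against 50.5% to 52.2% of counts over 500. Whether both reads of a pair were counted is not given in the sources used here, so counts of a few reads are less precise than they look. The 8 RPE markers summed to 53542 to 60094 CPM in P-RPE and 4059 to 7831 CPM at D32, with all 8 at 1 CPM or more in both. P-RPE also held markers of rods (837 to 2364 CPM over 4 genes), red cells (946 to 1723 CPM over 4 globin genes) and endothelium (511 to 595 CPM over 5 genes). D32 held them at lower levels, at 5.76 to 46.6 CPM for rods, 98.1 to 196 CPM for globin genes and 138 to 192 CPM for endothelium. At D18 the sums were 3.55 to 4.19 CPM for rods and 0.855 to 4.47 CPM for endothelium. The endothelial sum was 51.3 to 56.7 CPM in MEF. The 7 fibroblast markers were all above 1 CPM in each group.

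Positions are on GRCm38, from the GENCODE vM21 annotation. H2-DMa (chr17:34119541-34139101), H2-DMb1 (chr17:34153072-34160230), H2-Ab1 (chr17:34257689-34269419) and H2-Eb1 (chr17:34305867-34316674) are on the plus strand of the class II region, and H2-Aa (chr17:34282744-34287823) is on the minus strand. Ciita is at chr16:10480059-10528418 on the plus strand. Exons of H2-DMa share 360 bases (10.4% of its exon length) with Brd2 on the other strand, whose counts were 9100 to 15702 per library. Ciita shares 329 bases (3.45%) with Dexi on the other strand, at 462 to 1155 counts, and Cd74 shares 12 bases (0.715%) with Mir5107, at 0 to 12 counts. The strand setting of the counting is not given in the sources used here. Reads on the shared bases of H2-DMa and Ciita therefore cannot be told apart from those of their overlapping partners. How reads that match both H2-DMb1 and its near copy H2-DMb2 were counted is not given either, so the values of this pair are uncertain.

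RefSeq promoter windows (GRCm38.p6, 250 bases before to 50 after the start) matched 4 of the 7 genes: H2-Aa, H2-Eb1, H2-DMb1 and H2-DMa, the last with 2 start sites. They were searched on both strands for the Y box CTGATTGG, its core ATTGG, which lies within the Y box, and an X box core ACNGATG. The 120 bases before 3 of these starts follow, 5′ to 3′ on the gene's own strand. They are shown because each holds ATTGG within that stretch. Capitals mark the X box core, the Y box and ATTGG on either strand.
H2-Eb1, chr17:34305747-34305866, plus strand: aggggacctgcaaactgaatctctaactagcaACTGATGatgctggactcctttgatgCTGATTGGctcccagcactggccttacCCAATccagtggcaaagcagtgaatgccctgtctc
H2-DMb1, chr17:34153071-34153190, plus strand: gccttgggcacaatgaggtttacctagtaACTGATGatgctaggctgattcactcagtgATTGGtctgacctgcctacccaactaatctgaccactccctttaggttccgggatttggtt
H2-Aa, chr17:34287824-34287943, minus strand: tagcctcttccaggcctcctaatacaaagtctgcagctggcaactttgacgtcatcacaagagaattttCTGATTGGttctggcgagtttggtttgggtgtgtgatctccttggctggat

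H2-Eb1 and H2-DMb1 held the same X box letters, ACTGATG, at 88 and 91 bases before the start, with ATTGG following 29 and 30 bases after them on the same strand. The full 8 letters of the Y box were in H2-Eb1, 62 bases before the start, and in H2-Aa, 51 bases before it. H2-DMb1 had ATTGG alone, 61 bases before its start. In H2-Aa the only X box core match was on the other strand, 232 bases before the start and outside the stretch shown. The first H2-DMa window held none of these motifs, and the second held ATTGG alone, 198 bases before its start. Of 32851 mouse windows of the same length, 4.10% held CTGATTGG, 37.4% ATTGG and 9.85% ACNGATG, so the short forms are common, and a match describes letters and not a bound site.

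Ciita, the gene of the master regulator CIITA, was low in all groups outside P-RPE. Its levels were 0.213, 0.0830 and 0.397 CPM in the MEF libraries and 1.06, 1.32 and 0.777 CPM in those of D7. They were 0.618, 2.03 and 1.03 CPM in the D18 libraries and 1.08, 0.818 and 0.992 CPM in the D32 libraries. In P-RPE it reached 5.12 and 4.15 CPM. The D7, D18 and D32 libraries overlapped one another, all lay above MEF, and both P-RPE libraries lay above all the others. The log2 change from MEF was 2.17 (SE 0.51) at D7 and 2.05 (SE 0.52) at D32, and that from D18 to D32 was -0.35 (SE 0.44).

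Cd74, which lies on the plus strand of chromosome 18 (60803848 to 60812652, GRCm38), was the most abundant of the genes at D32 and in P-RPE and nearly absent before. MEF libraries had 2, 2 and 8 counts, D7 libraries 18, 7 and 29 and D18 libraries 6, 8 and 6, all under 0.7 CPM. The D32 libraries stood at 64.2, 75.2 and 37.7 CPM, and P-RPE at 321 and 369.9 CPM. Neither of these groups overlapped any other, and the third D32 library was the lowest of its group. The log2 change from D18 to D32 was 8.29 (SE 0.42), and D32 stayed 2.55 (SE 0.28) below P-RPE on the log2 scale.

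The alpha chain gene H2-Aa was also nearly absent before D32. The 3 MEF libraries had 6, 12 and 16 counts, the D7 libraries 6, 2 and 20, and the D18 libraries 2, 4 and 2. On day 32 it measured 29.4, 31.3 and 16.2 CPM, and P-RPE had 134 and 159.8 CPM. The lowest D32 library lay far above the highest of MEF, D7 and D18, whose ranges overlapped. From D18 to D32 the log2 change was 8.37 (SE 0.51), the largest of the 7 genes.

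H2-Ab1, the beta chain that pairs with H2-Aa, had already moved in the reprogramming medium. MEF libraries measured 0.305, 0.526 and 0.482 CPM, D7 libraries 5.13, 2.04 and 3.32 CPM and D18 libraries 4.16, 7.31 and 3.19 CPM. The D32 libraries had 30.3, 42.8 and 19.5 CPM, and primary RPE 157 and 197 CPM. All D7 and D18 libraries lay above MEF and below D32, and D7 and D18 overlapped each other. The log2 change was 2.97 (SE 0.50) from MEF to D7 and 2.66 (SE 0.37) from D18 to D32. At D7 and D18, then, H2-Ab1 was present at a few CPM while H2-Aa stayed between 0.0454 and 0.471 CPM.

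H2-Eb1, the I-E beta chain gene, rose and fell before it rose again. The MEF libraries had 0.792, 0.996 and 1.22 CPM, the D7 libraries 2.83, 2.14 and 2.59 CPM and the D18 libraries 0.506, 0.640 and 0.456 CPM. These levels rest on 26, 36 and 43 counts in MEF and 18, 24 and 16 counts at D18. The D32 libraries had 29.9, 35.4 and 18.5 CPM, and those of P-RPE 144 and 177 CPM. No neighbouring groups in the order of its levels overlapped, and D18 was the lowest. The log2 change was 1.32 (SE 0.26) from MEF to D7, -2.22 (SE 0.28) from D7 to D18 and 5.70 (SE 0.27) from D18 to D32.

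**Figure D1:**
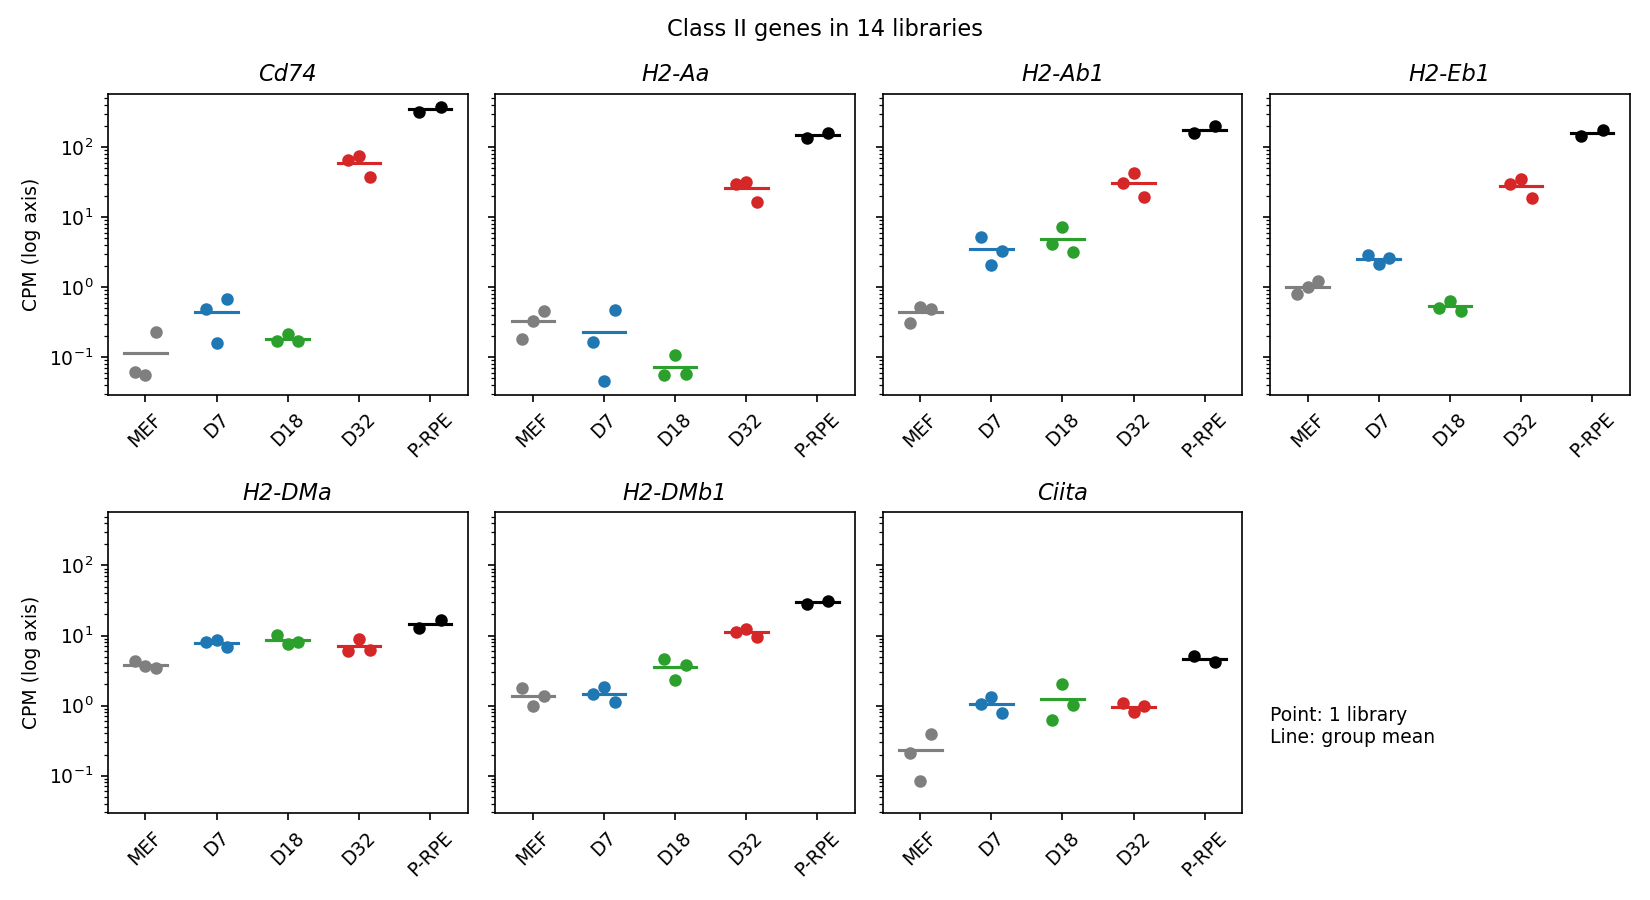
Level of each of the 7 genes in CPM on a log axis, by group; points are single libraries and lines are group means (n = 3, or n = 2 for P-RPE). Cd74 and H2-Aa stay under 1 CPM until D32, H2-Ab1 is raised from D7, H2-DMa changes least, and Ciita is no higher at D32 than at D7 or D18.

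H2-DMb1 and H2-DMa encode the chains of DM, the peptide exchanger. H2-DMb1 measured 1.77, 0.996 and 1.36 CPM in MEF and 1.47, 1.86 and 1.13 CPM at D7. It reached 4.61, 2.29 and 3.76 CPM in the D18 libraries, 11.4, 12.3 and 9.53 CPM in those of D32, and 28.2 and 31.2 CPM in primary RPE. MEF and D7 overlapped, and each later group lay above the one before it. H2-DMa was the only one of the 7 genes above 3 CPM in every library, with 4.26, 3.68 and 3.46 CPM in MEF and 12.6 and 16.5 CPM in P-RPE. Between them, the D7 libraries had 8.18, 8.61 and 6.95 CPM, the D18 libraries 10.1, 7.47 and 8.01 CPM and the D32 libraries 6.08, 8.94 and 6.13 CPM. Its D7, D18 and D32 libraries overlapped, above MEF and below P-RPE. Its log2 change from D18 to D32 was -0.27 (SE 0.20), where that of H2-DMb1 was 1.64 (SE 0.26).

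Levels of different genes were set per kb of the exon union, which joins the exons of all annotated transcripts. Its length was 3798 bases for H2-Aa, 2568 for H2-Ab1 and 1944 for H2-Eb1, and the order below depends on it. Not divided by length, the P-RPE means of H2-Aa, H2-Ab1 and H2-Eb1 were 147, 177 and 160 CPM. In P-RPE the order was Cd74 (206 ± 20.8 CPM per kb, SD, n = 2), H2-Eb1 (82.5 ± 11.95), H2-Ab1 (68.8 ± 11.1), H2-Aa (38.7 ± 4.75), H2-DMb1 (17.7 ± 1.26), H2-DMa (4.22 ± 0.798) and Ciita (0.486 ± 0.0717). The order was the same at D32, from Cd74 at 35.2 ± 11.5 CPM per kb (SD, n = 3) to Ciita at 0.101 ± 0.0138, with H2-Aa at 6.75 ± 2.17 and H2-DMb1 at 6.60 ± 0.853. That pair at D32, and H2-Eb1 and H2-Ab1 both at D32 and in P-RPE, were within their spread. At D18 it was another: H2-DMa led at 2.47 ± 0.396 CPM per kb, followed by H2-DMb1 at 2.11 ± 0.696 and H2-Ab1 at 1.90 ± 0.839, these 3 within their spread, and H2-Aa was last at 0.0193 ± 0.00762.

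The mix of the 4 abundant genes was nearly the same at D32 as in P-RPE. Cd74 made up 51.5% ± 0.693 of the summed CPM per kb of Cd74, H2-Aa, H2-Ab1 and H2-Eb1 at D32 (SD, n = 3) and 52.0% ± 1.14 in P-RPE (n = 2). The shares were 9.88% ± 0.608 and 9.79% ± 0.00126 for H2-Aa, 17.5% ± 1.43 and 17.4% ± 0.673 for H2-Ab1, and 21.2% ± 0.536 and 20.8% ± 0.466 for H2-Eb1. For all 4 genes the D32 and P-RPE libraries overlapped. Earlier groups had other mixes: H2-Eb1 took 62.2% ± 4.14 in MEF and H2-Ab1 took 81.5% ± 3.76 at D18, while at D7 H2-Ab1 (44.5% ± 7.197) and H2-Eb1 (45.2% ± 8.64) shared the sum. The MEF, D7 and D18 shares rest on few counts of Cd74 and H2-Aa. Counts were also few for H2-Ab1 in MEF (10, 19 and 17) and for H2-Eb1 in MEF (26, 36 and 43) and at D18 (18, 24 and 16).

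**Figure D2:**
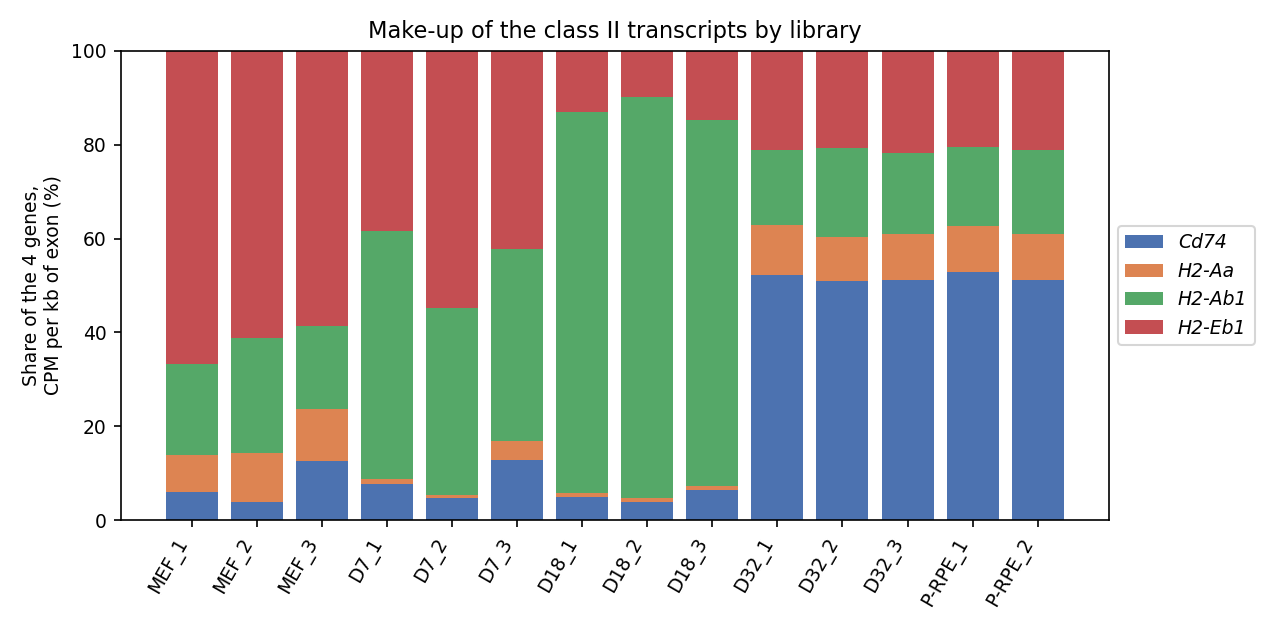
Share of each gene in the summed CPM per kb of Cd74, H2-Aa, H2-Ab1 and H2-Eb1, 1 bar per library. The 3 D32 bars and the 2 P-RPE bars have nearly the same divisions, with Cd74 at 51.0% to 52.8%, and H2-Ab1 fills 78.0% to 85.5% of the D18 bars.

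The size of the gap between D32 and P-RPE was also alike for these 4 genes. The D32 mean was 17.1% of the P-RPE mean for Cd74, 17.4% for H2-Aa, 17.5% for H2-Ab1 and 17.4% for H2-Eb1, and log2 differences ran from -2.55 to -2.52. Ciita stood at 20.7% ± 2.84 of P-RPE (SD over 3 D32 libraries), H2-DMb1 at 37.4% ± 4.83 and H2-DMa at 48.4% ± 11.2. The third D32 library held 53.2% to 56.8% of the mean of the other D32 libraries for the 4 abundant genes, 80.3% for H2-DMb1, 81.6% for H2-DMa and 105% for Ciita. Ciita did not show the low value of that library, but it had only 43, 31 and 38 counts in the D32 libraries. In bulk RNA, fewer cells of a type and less RNA per cell cannot be told apart, so these shares do not say how many cells carried the transcripts.

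Marker lists differed in their level at D32 relative to P-RPE. The median share was 22.5% over 16 macrophage and microglia markers (range 11.2% to 354%), 16.5% over 5 endothelial markers (12.7% to 93.0%) and 13.9% over 8 RPE markers (9.05% to 59.6%), beside 17.5% over the 7 class II genes (17.1% to 48.4%). On the log2 scale the median difference of D32 from P-RPE was -5.79 for rod genes, -3.40 for globin genes, -1.04 for dendritic cell markers and -0.53 for B cell markers, and it was 1.39 for astrocyte and 3.34 for fibroblast markers, beside -2.52 for the 7 genes. In the third D32 library the median gene stood at 72.6% of the mean of the other D32 libraries for macrophage and microglia markers, from 52.8% for Tyrobp to 104% for P2ry12. The median was 76.3% for endothelial markers and 72.1% for RPE markers, the latter from 54.9% for Rgr to 109.7% for Dct. The 53.2% to 56.8% of the 4 abundant class II genes thus lay at the low end of these lists. Which cells carried the class II transcripts was not tested.

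**Figure D3:**
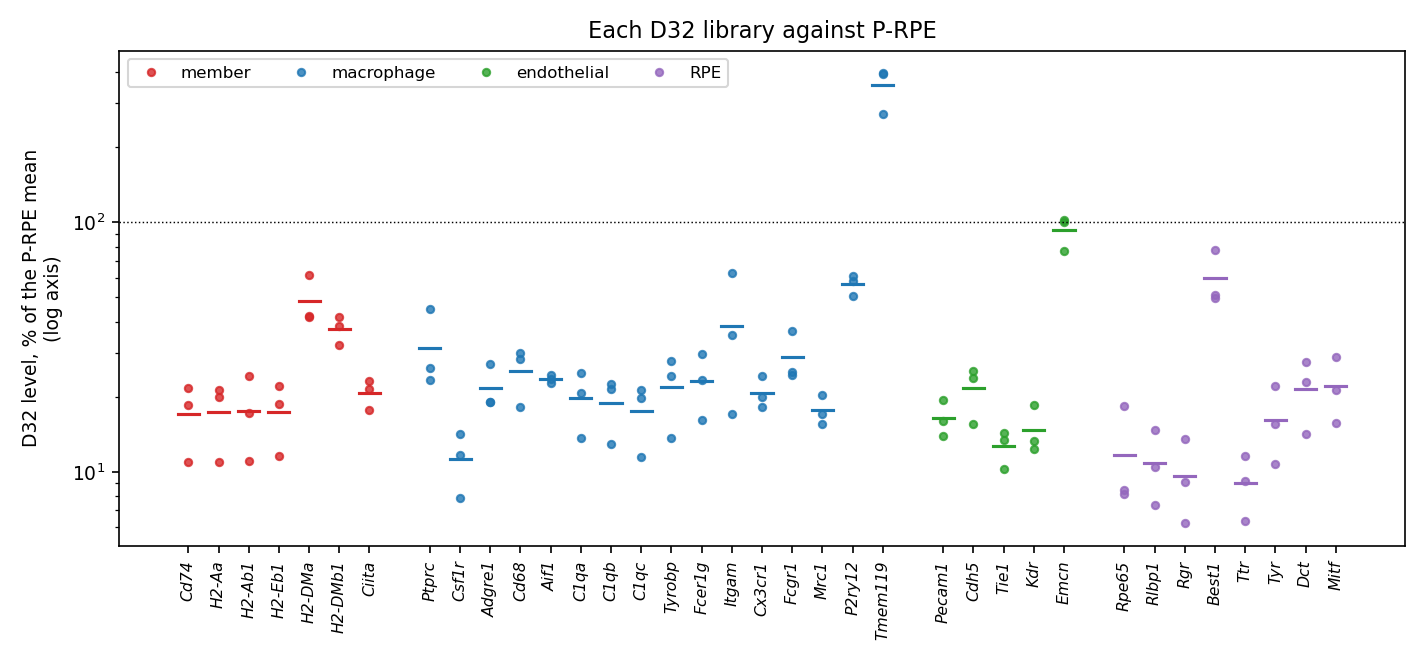
Level in each D32 library as a percent of the P-RPE mean, on a log axis, for the 7 class II genes and for macrophage, endothelial and RPE markers; points are libraries, lines are means over 3 libraries, and the dotted line is 100%. Cd74, H2-Aa, H2-Ab1 and H2-Eb1 lie at 17.1% to 17.5%, inside the spread of the marker genes.

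Marker transcripts of macrophages, dendritic cells and B cells, the cells known for class II, were counted in the same libraries. The 16 macrophage and microglia markers summed to 236 to 389 CPM for D32 and 1462 to 1586 CPM for primary RPE, with 16 of 16 at 1 CPM or more in both and none at 0 counts. The sums were 111 to 116 CPM in MEF with 12 of 16 at 1 CPM, 33.7 to 38.1 CPM at D7 with 3, and 35.7 to 71.3 CPM at D18 with 9. The 8 dendritic cell markers had sums of 5.97 to 7.66 CPM in MEF, 5.84 to 7.77 CPM on day 7 and 20.9 to 24.5 CPM on day 18. The sums of day 32 overlapped those of day 18, at 16.5 to 25.4 CPM with 3 of 8 at 1 CPM, and were 45.4 to 50.9 CPM in primary RPE with 4 of 8. Cd209a was at 0 counts before D32. The B cell markers, 6 in number, summed to at most 1.47 CPM before D32, with Ms4a1 at 0 counts. They summed to 2.74 to 6.88 CPM on day 32, with 2 of 6 at 1 CPM, and to 12.6 to 14.3 CPM in primary RPE, with 3 of 6. The T and NK cell markers, 5 in number, summed to 3.86 to 5.86 CPM at D32, where only Cd4 reached 1 CPM. Globin genes were at 0 counts at D7 and D18 and summed to 98.1 to 196 CPM at D32. The part of these cells in the class II levels was not tested.

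Class II and macrophage transcripts did not keep 1 ratio, and the macrophage sum was led by different genes. Tmem119 was the most abundant marker at D7, Cd68 in MEF and D18, and Csf1r at D32 and in P-RPE. At D32, Tmem119 stood at 354% of its P-RPE mean, the highest share of the list. The sum of Cd74, H2-Aa, H2-Ab1 and H2-Eb1 was 1.20% to 2.16% of the macrophage sum in MEF, between 11.5% and 22.9% on day 7 and between 7.38% and 13.7% on day 18. It was 38.9% to 53.5% for the D32 libraries and 51.7% to 57.0% for P-RPE. Against C1qa, C1qb and C1qc alone it was 5.61% to 10.4% in MEF, 161% to 203% on day 32 and 189% to 198% in primary RPE. On day 7 it was 197% to 652% and on day 18 it was 32.8% to 15500%, where the C1q genes summed to only 1.08 to 2.23 CPM and 0.0534 to 11.8 CPM. MEF thus held C1q transcripts at 22.9 to 26.3 CPM with class II genes at 1.34 to 2.38 CPM in sum. The third D18 library had 102 counts of C1qa and 187 of Csf1r, the receptor of a macrophage growth factor, where the other D18 libraries had 4 and 2 of C1qa and 6 and 30 of Csf1r. Its Cd74 count was 6, no higher than in the other D18 libraries. Its sum over the whole macrophage list was 52.6 CPM, between the 35.7 and 71.3 CPM of the other D18 libraries. By that sum it was not the highest of its group.

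**Figure D4:**
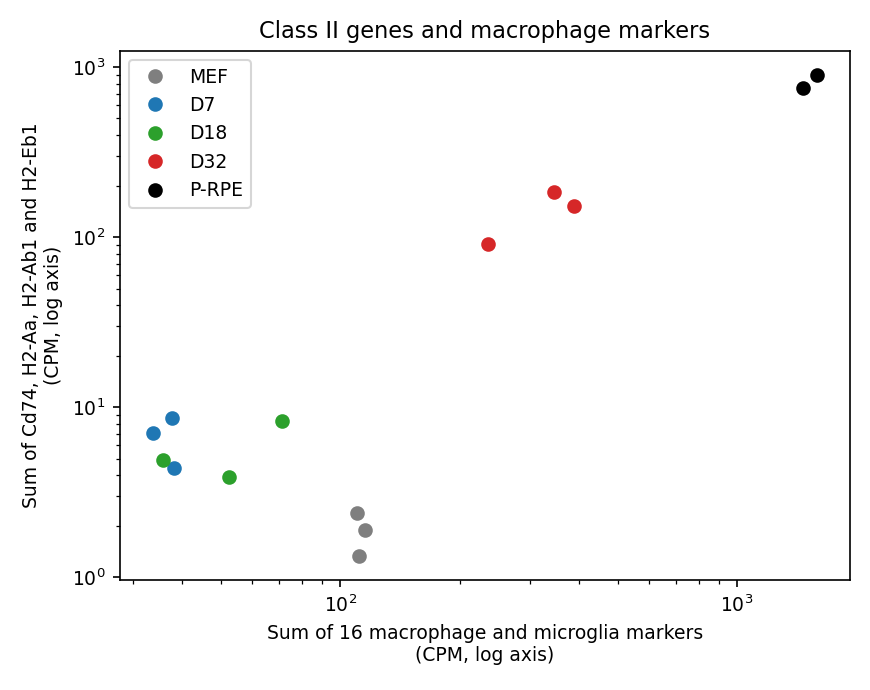
Summed CPM of Cd74, H2-Aa, H2-Ab1 and H2-Eb1 against summed CPM of 16 macrophage and microglia markers, both on log axes, 1 point per library. D7 and D18 lie left of MEF on the marker axis and above it on the class II axis, and D32 and P-RPE are high on both.

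The 6 comparisons were made with edgeR's quasi-likelihood test over all genes, at a Benjamini-Hochberg adjusted p under 0.05. From MEF to D7, 5 of the 7 genes passed as higher and 0 as lower, where 28.5% of all genes passed as higher and 26.5% as lower, 55% in all. H2-Aa and H2-DMb1 did not pass, at log2 changes of -0.51 (SE 0.63) and 0.12 (SE 0.29). Without the third D7 library Cd74 no longer passed (log2 change 1.38) and H2-Aa passed as lower (-1.71), and Cd74 also did not pass with limma-voom or with no filter on low counts. The median log2 change of the 7 genes was 1.32, beside 0.04 over all genes. Over the same comparison, 11 of the 16 macrophage markers passed as lower and 1 as higher.

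From D7 to D18, H2-DMb1 passed as higher and H2-Eb1 as lower, with 29.2% of all genes higher and 27.4% lower, 56.6% in all. Without the second D7 library 4 of the 7 passed, as Cd74 (-1.68) and H2-Aa (-2.11) were then lower. The median was 0.11, beside 0 over all genes. From D18 to D32, 5 passed as higher and H2-DMa and Ciita did not, with 29.9% of all genes higher and 26.1% lower, 56% in all. The median log2 change was 2.66, beside 0.07 over all genes.

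All 7 passed as higher at D32 against MEF, where 35.6% of all genes were higher and 24.6% lower, 60.2% in all, with a median of 4.79 beside 0.26. All 7 also passed as higher in P-RPE against MEF, where 39.3% of all genes were higher and 31.4% lower, 70.7% in all, with a median of 7.31 beside 0.18. These comparisons share the MEF libraries. All 7 passed as lower at D32 against P-RPE, where 27.1% of all genes were higher and 26.8% lower, 53.9% in all, with a median of -2.52 beside 0.02. The choice of genes used these same contrasts, so nothing is read from these counts.

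Around the 7 genes, 47 genes in 6 pathway lists were followed, of which 43 were tested. By edgeR at the same threshold, 24 rose and 7 fell from MEF to D7, 10 rose and 13 fell from D7 to D18, and 17 rose and 19 fell from D18 to D32. Against P-RPE, 5 were higher at D32 and 21 lower. Over all genes the shares higher and lower were 28.5% and 26.5%, 29.2% and 27.4%, 29.9% and 26.1%, and 27.1% and 26.8% in these 4 comparisons, and the counts of each list below stand beside them. Scaled by library totals alone, the splits were 27 higher and 3 lower from MEF to D7 and 8 higher and 18 lower from D7 to D18. That scaling moved the median of all genes to 0.36 in the first of these comparisons and to -0.19 in the second, and the split over all genes to 8074 higher and 3512 lower, and 4850 higher and 7059 lower. For D32 against P-RPE it gave a median of 0.25 and 6979 genes higher and 4260 lower, in place of 5564 and 5516, and for D32 against MEF a median of 0.46.

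Genes of the proteins that bind the X and Y boxes passed in both directions. Among 7 such genes, 2 rose and 2 fell from MEF to D7. Rfxank and Rfx5, subunits of the RFX complex, rose over that step by log2 1.58 (SE 0.15, adjusted p = 5.5e-07 by edgeR) and 0.83 (SE 0.16, adjusted p = 0.00047). From D18 to D32, where Cd74 and H2-Aa changed by more than 8 on that scale, 2 rose and 3 fell. Rfx5 fell by 0.78 (SE 0.16, adjusted p = 0.00071 by edgeR) and Nfyb, a subunit of NF-Y, rose by 0.56 (SE 0.11, adjusted p = 0.00065). Creb1 passed in none of the 6 comparisons, at 35.2 ± 0.451 CPM in MEF and 29.9 ± 3.00 CPM in P-RPE. Over all 6 comparisons the log2 changes of the 7 genes lay between -0.95 and 1.63.

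Genes of interferon-gamma signalling rose in part at D7. Of 10 tested, 6 passed as higher and 2 as lower, with a median log2 change of 0.55 beside 0.04 over all genes. Gbp2, an interferon-induced GTPase, went from 3.31 ± 0.309 CPM up to 34.4 ± 2.76 CPM, by 3.37 on the log2 scale (SE 0.15, adjusted p = 1.8e-10 by edgeR). Irf1, a transcription factor that acts on the Ciita gene, rose by 1.99 (SE 0.25, adjusted p = 1.3e-05). From D18 to D32, 4 rose and 3 fell: Irf8, a factor of myeloid cells, rose by 1.26 (SE 0.24, adjusted p = 0.00037 by edgeR), while Gbp2 fell by 1.90 (SE 0.14, adjusted p = 2.4e-08). Ifng itself, the interferon gene, had 0 counts in MEF, D7 and D18, 11 over the 3 D32 libraries and 10 over the P-RPE libraries.

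Class I presentation genes, which show peptides from the cytosol, rose at D7, and most fell from D18 to D32. All 10 rose from MEF to D7, with a median log2 change of 3.09 beside 0.04 over all genes. H2-K1, a class I heavy chain, rose from 26.1 ± 2.68 to 757 ± 42.6 CPM (log2 change 4.86, SE 0.18, adjusted p = 2.5e-11 by edgeR), and Nlrc5, the class I counterpart of Ciita, from 4.96 ± 0.925 to 49.3 ± 9.01 CPM (3.31, SE 0.19, adjusted p = 2.2e-09). From D18 to D32, 9 of the 10 fell, Psmb9 of the immunoproteasome most, by 1.66 (SE 0.21, adjusted p = 7.8e-06 by edgeR). Over that step the median was -1.12 for class I genes, beside 0.07 over all genes. B2m, the light chain of class I, was the exception at 0.35 (SE 0.13, adjusted p = 0.033 by edgeR), and did not pass without the third D18 library (0.21). Nor did B2m pass with RLE size factors (0.28), with DESeq2 (0.28) or with the compared groups alone (0.33). At D32, 8 of the 10 were still higher than in MEF and 0 lower, where 35.6% of all genes were higher and 24.6% lower. Their median log2 change from MEF to D32 was 1.43, beside 0.26 over all genes.

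The endosomal enzymes that prepare class II differed one from another. Ctss, cathepsin S, which trims the invariant chain in macrophages and dendritic cells, was at 18.16 ± 0.804 CPM in MEF and 0.112 ± 0.0674 CPM at D7, a log2 change of -7.28 (SE 0.65, adjusted p = 8e-07 by edgeR). It stood at 0.435 ± 0.457 CPM at D18 and rose from there to D32 by 7.86 (SE 0.56, adjusted p = 1.1e-07), reaching 313 ± 5.73 CPM in P-RPE. Ctsl, cathepsin L, which does this work in the thymic epithelium, was at 671 ± 17.4 CPM in MEF, 773 ± 284 CPM at D18 and 1289.5 ± 80.7 CPM at D32, and it was higher at D32 than in P-RPE by 1.53 (SE 0.22, adjusted p = 3.1e-05 by edgeR). Ctsb, cathepsin B, rose by 1.73 from D7 to D18 and fell by 1.67 from D18 to D32 (SE 0.13 each, adjusted p = 3.5e-08 and 5e-08). Cst3, cystatin C, an inhibitor of such proteases, was the most abundant of the list in P-RPE and lower at D32, with a log2 difference of -2.54 (SE 0.21, adjusted p = 1.4e-07 by edgeR). Of the 8 genes, 4 rose and 3 fell from D18 to D32, where 29.9% of all genes rose and 26.1% fell. At D32, 6 were lower than in P-RPE and 1 was higher, where 26.8% of all genes were lower and 27.1% higher.

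Costimulatory and checkpoint ligands act beside class II on T cells. Cd86 was under 0.5 CPM in MEF, D7 and D18 on average and measured 1.10 ± 0.365 CPM at D32 and 5.15 ± 0.114 CPM in P-RPE, a rise of 4.24 (SE 0.71, adjusted p = 0.00013 by edgeR) from D18 to D32. Cd80, the other ligand of CD28, also rose over that step, by 1.06 (SE 0.33, adjusted p = 0.014 by edgeR), but not with no filter on low counts or with the compared groups alone. It was 25.3 ± 2.43 CPM in MEF and 2.02 ± 0.623 CPM in P-RPE, and higher at D32 than in P-RPE by 2.40 (SE 0.41, adjusted p = 0.00023 by edgeR). Cd40 peaked at D7 at 10.1 ± 1.05 CPM, a rise of 3.91 (SE 0.33, adjusted p = 1.4e-07 by edgeR) over MEF, and was 0.971 ± 0.407 CPM at D18. Icosl, the ligand of ICOS, rose by 4.10 (SE 0.24, adjusted p = 2.8e-09 by edgeR) from MEF to D7 and by 2.59 (SE 0.19, adjusted p = 3.8e-08) from D7 to D18, and fell by 2.48 (SE 0.19, adjusted p = 5.6e-08) from D18 to D32. Cd274, the PD-L1 gene, was 5.42 ± 1.22 CPM at D32 and 15.8 ± 1.49 CPM in P-RPE.

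The remaining genes of the class II region were read at very few counts. H2-Oa and H2-Ob encode DO, an inhibitor of DM known from B cells and some dendritic cells, and both had 0 counts in MEF, D7 and D18. H2-Ob had 93 counts over the D32 libraries and 121 over P-RPE. Its group means lay 28.7-fold and 59.9-fold above a floor of 3 counts over the D18 libraries. H2-Oa had 17 and 46 counts, with group means 5.20-fold and 22.5-fold above that floor, but its lowest D32 library had 0 counts. H2-DMb2 had 2, 6 and 4 counts over MEF, D7 and D18, 44 at D32 and 70 in P-RPE. These 3 genes passed the filter on low counts only through D32 or P-RPE, where they were high. Their rise from D18 to D32 is therefore given as counts, and no p is read from it. The other genes of this list, H2-Ea and H2-Eb2, were not tested. H2-Ea had 0 counts in all 14 libraries, which allows up to 0.0243 to 0.0411 CPM per group, and H2-Eb2 had 2 counts at D18, 16 at D32 and 0 elsewhere.

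**Figure D5:**
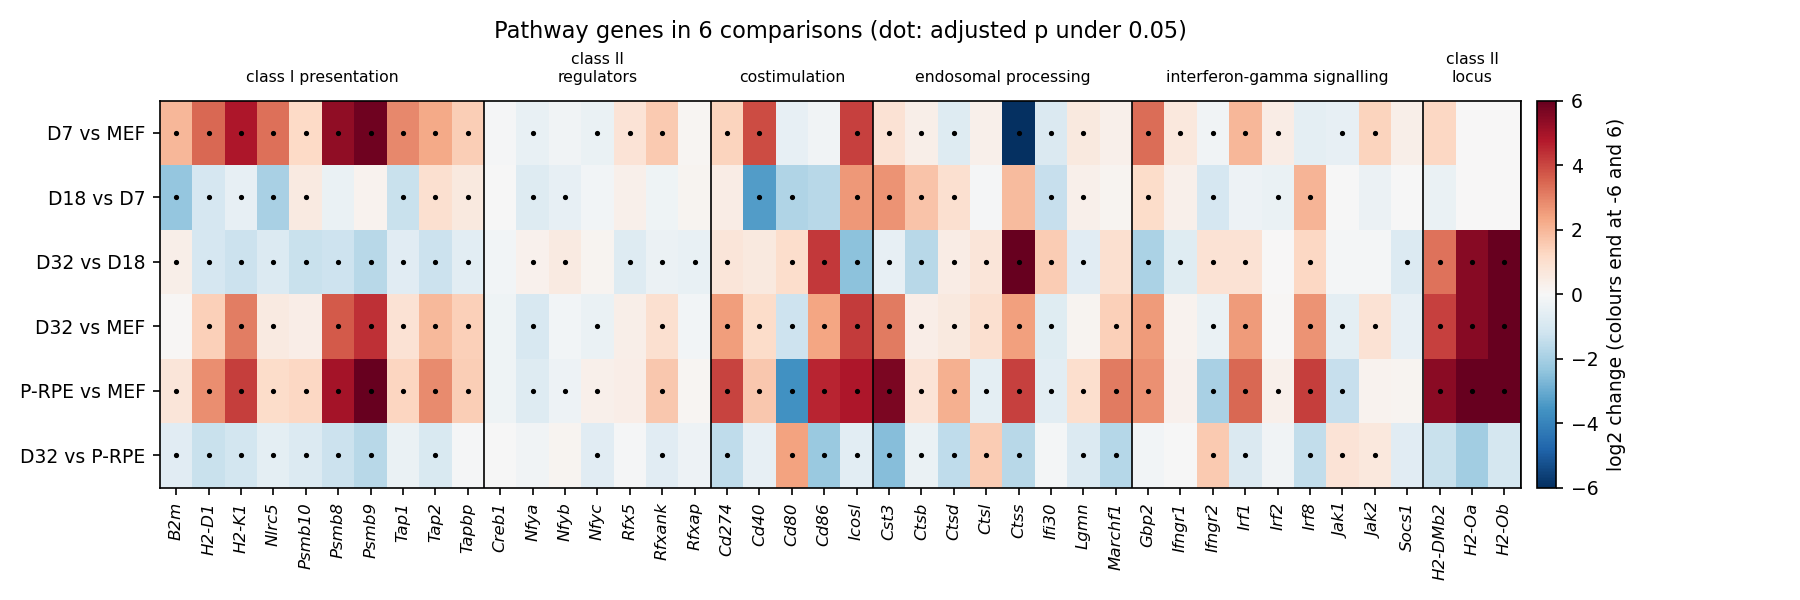
Log2 change of tested pathway genes in the 6 comparisons, by list; red is higher in the first group named, blue is lower, dots mark an adjusted p under 0.05 by edgeR, and colours end at -6 and 6. Class I genes are red at D7 and mostly blue from D18 to D32. H2-Oa and H2-Ob are red at D32 against D18 and MEF and in P-RPE against MEF, fitted against groups at 0 counts. Both are blue, without a dot, at D32 against P-RPE. They passed the filter on low counts only through D32 or P-RPE.

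Genes whose levels ran most like the 7 were found by the Pearson r with the mean of their standardised log2 CPM over the 14 libraries, which share a few large group differences. Among the 10 highest were Lamc3 (0.995), a laminin chain gene, Paqr9 (0.990), Pip5k1b (0.987), Dnmt3c (0.986), Slco1c1 (0.985), which encodes a thyroid hormone transporter, Zfp385b (0.984), Slc1a1 (0.983), a glutamate transporter gene, Edn3 (0.983), which encodes endothelin 3, and Susd1 (0.982). Lamc3, for example, measured 0.734 ± 0.163 CPM in MEF, 2.26 ± 0.413 at D7, 2.34 ± 0.299 at D18, 11.7 ± 2.699 for D32 and 84.2 ± 6.55 for P-RPE. Without the P-RPE libraries, 5 of the 10 were again among the highest 10. The 7 genes themselves had values from 0.773 for H2-DMa and 0.822 for Ciita to 0.981 for H2-Ab1. Each of the 7 is part of that mean, which raises its value, so these are not comparable with the r of other genes. Between pairs of the 7, r ran from 0.428 for H2-Aa with H2-DMa to 0.977 for Cd74 with H2-Aa. Over the genes of each list at 1 CPM or more in some group, the median was 0.631 for macrophage and microglia markers, 0.935 for endothelial markers, 0.928 for RPE markers, 0.960 for T and NK cell markers (Cd4 alone), 0.935 for globin genes, 0.907 for rod genes, 0.897 for B cell markers, 0.727 for dendritic cell markers and -0.11 for the regulators that bind the X and Y boxes, beside 0.04 over all 16712 genes compared.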

How the data were processed

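The deposited mouse table holds counts, 1 whole number per symbol and library, per the labels. Named in the submitters' processing notes are STAR 2.7.11a, Subread with featureCounts, limma 3.58.1 and edgeR 4.0.16, beside the builds GRCm38, mm10 and GRCh38. Strand, multiple matches and annotation release are not given in the sources used here. A human table with 10 columns was not used. Groups came from sample titles. Of the symbols, 53292 (96.4%) matched GENCODE vM21.

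The 7 genes, the pathway and marker lists and the tests were chosen with earlier results of these data known. In R 4.3.3, edgeR 4.0.16 (filterByExpr by group, TMM scaling, 1 quasi-likelihood model of 5 group means over 14 libraries, robust) gave 6 contrasts, with Benjamini-Hochberg adjustment over 20562 genes at 0.05. The SE is the log2 change over the square root of F. CPM uses TMM-scaled sizes, and CPM per kb the GENCODE exon union. Likeness used log2 CPM with a prior count of 2 and genes at 1 CPM or more in some group. Named pathway genes were the called members of a list with the largest rises and falls and the most abundant member, of which the text names some; other named genes were chosen after their values were seen. Motifs were matched exactly. The fit was tested on simulated data.

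Other settings tried were size factors by RLE or by library totals, fits unfiltered or filtered at a group mean of 5 CPM, a replicate block, limma-voom 3.58.1 and DESeq2 1.42.0, fits of the compared groups only, and fits without each library. Likeness was repeated with a prior count of 0.5 and without P-RPE. Some single genes and 1 motif are not reported here.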

Additional observations from a re-analysis of the deposited data

How the results depend on the processing

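The number of the 7 genes called moved past 1.5 times its value in 1 setting: from D7 to D18, 4 passed without the second D7 library, in place of 2. With each library left out in turn, the 7 genes gave 4 to 5 calls for D7 against MEF, 2 to 4 for D18 against D7, 5 for D32 against D18 and 7 in the other 3 comparisons. The 43 pathway genes gave 29 to 31, 21 to 23, 27 to 34, 30 to 33 for D32 against MEF, 33 to 36 for P-RPE against MEF and 20 to 29 for D32 against P-RPE. With library totals alone, Ifngr2 turned from lower to higher at D7 against MEF (0.089), without a call; the cause was not tested. Cd74 at D7 against MEF did not pass with no filter (1.87) or with limma-voom (1.83). Of the first 10 genes by likeness, 7 were shared with a prior count of 0.5 and 5 without the P-RPE libraries.

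Deviations from the group means showed little correlation between same-numbered libraries (r from -0.0967 to 0.0953 over 26 pairs, 0 over 0.1). With so few libraries per group, this cannot show whether the replicate numbers pair samples. With the replicate block, 5, 2, 5, 7, 7 and 7 of the 7 genes were called in the 6 comparisons, as without it, and 32, 24, 35, 32, 36 and 26 pathway genes. Nfyb in P-RPE against MEF lost its call (-0.32, adjusted p = 0.0547). Depth limits Cd74, H2-Aa and Ciita before D32, where 1 library holds 2 to 76 counts. It also limits H2-Ab1 in MEF, at 10 to 19 counts, and H2-Eb1 in MEF and at D18, at 16 to 43 counts.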
